A study of Mus musculus with 5 samples.

Results

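The transcripts described here are those of 32 genes that hepatocytes express for plasma proteins and liver metabolism, read in libraries of sorted invariant natural killer T (iNKT) cells from mouse liver. The genes were named by symbol, and all 32 had a row among the 55364 gene rows of each table. They comprise albumin and 6 other carriers, 7 apolipoproteins, 6 serpins, 3 fibrinogen chains, 4 acute-phase proteins, and 4 enzymes with the fatty acid carrier Fabp1. iNKT cells are lymphocytes that recognise lipids on CD1d, and they were enriched on Percoll and sorted by flow cytometry for binding of a CD1d tetramer loaded with PBS57 and for surface TCRb. The 2 healthy libraries came from wild-type (WT) mice treated with PBS. The 3 libraries from hepatocellular carcinoma (HCC) came from WT C57BL/6 males given a single intraperitoneal dose of 25 mg/kg diethylnitrosamine (DEN) at 15 days of age, and mice were killed at 38 to 42 weeks. DEN is a carcinogen that hepatocytes activate. The libraries are described as from separate mice, but HCC 2 and HCC 3 were deposited in tables named with a common number.

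Hepatocytes, the epithelial cells of the liver, make most of the proteins of blood plasma and send them into the circulation. They also hold the urea cycle, the handling of lipids and the oxidation of drugs. Much of this output rests on liver-enriched transcription factors such as hepatocyte nuclear factor 1 (HNF1), whose sites are well known from the promoters of albumin, alpha-1 antitrypsin and fibrinogen. T cells are not known as a source of albumin or fibrinogen, and these transcripts are commonly used as hepatocyte markers.

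Promoter stretches of members from different roles are shown because they carry the same core, GTTAAT, of the HNF1 motif. The 250 bases before the RefSeq start (GRCm38.p6) were searched on both strands for GTTAAT. It was found in 11 of the 25 members with a promoter entry (44%) and in 2023 of 27025 genes (7.49%). The 11 include Serpina1a to Serpina1e, tandem copies with nearly the same promoter, and with these counted once the share was 7 of 21 (33.3%). A match is a description of letters and not of binding. The stretches read 5′ to 3′ on the strand of the gene, with the matched letters in capitals (ATTAAC is GTTAAT on the other strand).
Alb, chr5:90460798-90460869, plus strand: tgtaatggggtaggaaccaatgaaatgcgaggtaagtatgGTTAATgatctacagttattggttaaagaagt
Serpina1a, chr12:103863625-103863680, minus strand: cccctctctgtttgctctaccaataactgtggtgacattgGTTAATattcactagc
Serpina1d, chr12:103773634-103773689, minus strand: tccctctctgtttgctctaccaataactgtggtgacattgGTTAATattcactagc
Fgb, chr3:83049864-83049932, minus strand: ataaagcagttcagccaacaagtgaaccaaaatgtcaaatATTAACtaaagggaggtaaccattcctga
Gc, chr5:89457905-89457990, minus strand: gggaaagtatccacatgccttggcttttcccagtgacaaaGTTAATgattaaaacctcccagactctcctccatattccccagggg
Fabp1, chr6:71199732-71199817, plus strand: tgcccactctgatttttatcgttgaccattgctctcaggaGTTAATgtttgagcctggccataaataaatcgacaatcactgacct
Over the 56 bases compared, Serpina1b, Serpina1c and Serpina1e did not differ from Serpina1a, and Serpina1d differed at 1 base.

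The deposited values are whole numbers, but they are not raw counts. In healthy 1, 25 of the whole numbers from 1 to 40 occur for no gene, because each read is worth 2.655 units, and in HCC 3 a read is worth 1.393 units and 11 of those numbers occur for no gene. In healthy 2 and HCC 1, where 13 and 17 of those numbers each stand for 2 read numbers, a read was estimated at 0.759 and 0.7065 units. HCC 2 gave 0.44 units, the least certain estimate, with 0.4905 the next best. The estimated totals are 837799 and 2400347 reads in healthy 1 and 2, and 2601066, 3905573 and 1352462 reads in HCC 1, 2 and 3, although the table totals all lie between 1718452 and 2224356. Levels below are CPM, the customary library-size scaling, in which each value is divided by its table's own total. This scale does not use the step. Read numbers, intervals and limits do use it. Values follow the order healthy 1, healthy 2, then HCC 1, HCC 2, HCC 3. A value of 0 allows 3 reads, which is 3.58 and 1.25 CPM in the healthy pair, 1.15 CPM in HCC 1 and 2.22 CPM in HCC 3. In HCC 2 a single read is rounded to 0, so a 0 there allows 4.74 reads, or 1.21 CPM. Limits and intervals cover counting error only, since reads without molecular identifiers are not independent molecules. Healthy 1, the shallowest library, stood apart: its Pearson r with the others, across genes of log2(CPM + 1), was 0.767 to 0.820 against 0.848 to 0.903 among the other libraries. The 11 T cell and iNKT marker genes summed to 4545 to 5917 CPM in the 5 libraries, led by genes that T cells share, such as Trbc2 and Il2rb. Markers closer to the iNKT label did not bear it out in every library. Zbtb16, the lineage factor PLZF, was at 1.65 CPM at most and at 0 in HCC 3, and Klrb1c (NK1.1) varied widely, with 5.49 CPM in healthy 2, 20.9 CPM in HCC 2 and 333 to 465 CPM in the others.

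Hepatocyte transcripts were a small share of every library and were highest in HCC 2 and HCC 3. The 32 genes summed to 132 CPM in healthy 1 (95% exact interval 107 to 157) and 102 CPM in healthy 2 (90.9 to 117). They summed to 182 CPM in HCC 1 (165 to 198), 506 CPM in HCC 2 (484 to 529) and 1153 CPM in HCC 3 (1096 to 1211). Each HCC library was higher than the healthy pair, but HCC 1 was nearer to the healthy pair than to the other 2 tumour libraries. The means were 117 ± 20.95 CPM (SD, n = 2) and 613 ± 494 CPM (SD, n = 3), a 5.25-fold ratio. The two-sided exact permutation test gave p = 0.2, the smallest that 2 against 3 libraries allow, so the difference cannot pass a threshold of 0.05. Without HCC 3 the ratio was 2.94. Without Apoe, Trf and Ass1, which macrophages or other cells also express, the ratio was 8.17. These genes were set aside after the data were seen. Their own ratios of means were 2.6, 2.3 and 1.9, so leaving them out had to raise the ratio of the sums. In bulk libraries, more cells of a kind and more RNA per cell cannot be told apart.

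**Figure D1:**
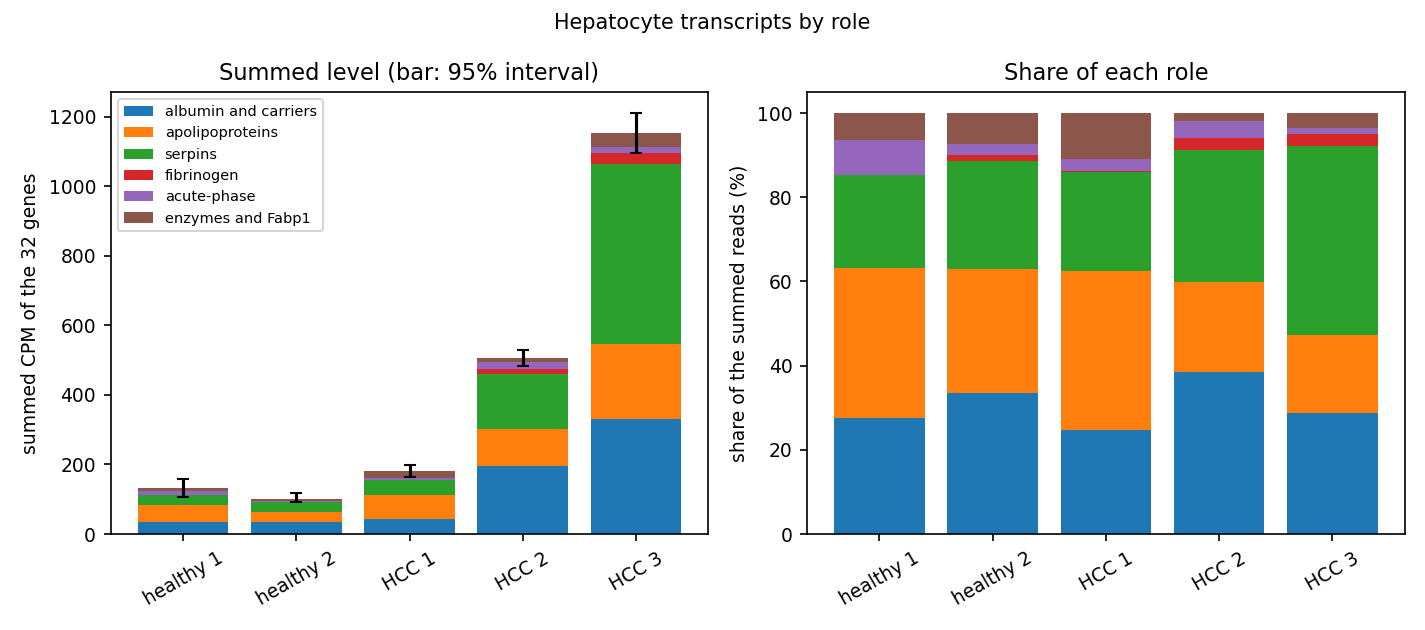
Left, CPM summed over the 32 hepatocyte genes in each library, stacked by role, with the 95% exact interval of the sum as the bar. Right, the percentage of those reads in each role. The sum runs from 102 CPM in healthy 2 to 1153 CPM in HCC 3, where serpins hold 44.8% of the reads, or 26.2% of the summed CPM with Serpina1b to Serpina1e left out.

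Albumin and the other carriers made up 36.0 and 34.6 CPM of the healthy libraries and 44.6, 194 and 332 CPM of HCC 1, 2 and 3. Alb (ENSMUSG00000029368, chromosome 5, 90460897 to 90476602, mm10), which encodes the most abundant protein of plasma, was at 3.60 and 18.1 CPM in healthy 1 and 2, which is about 3 and 43 reads. In HCC 1, 2 and 3 it was at 7.07, 58.8 and 199 CPM (about 18, 230 and 269 reads). HCC 1 thus lay between the healthy libraries, and only HCC 2 and 3 lay above both. The log2 fold change of log2(CPM + 1) was 2.29 (SE 1.07). It was 1.26 without healthy 1 and 1.23 without HCC 3, but 3.32 without healthy 2 and 3.54 without HCC 1. Trf, the iron carrier transferrin, was at 28.8 and 10.98 CPM in the healthy pair, against 20.7, 67.5 and 50.4 CPM in the HCC libraries, so the groups overlapped here too. Of the 31-base words at the 3′ ends of its transcripts, 76.3% also occur in other genes, chiefly Gm20425, which overlaps Trf on the same strand.

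For Ttr, Ambp and Rbp4 all HCC values lay above the healthy values. Ttr, which encodes the thyroxine carrier transthyretin, was at 1.35 and 1.65 CPM in healthy libraries (about 1 and 4 reads) and at 5.44, 36.1 and 41.9 CPM in HCC 1, 2 and 3. Its log2 fold change was 3.12 (SE 0.90), and 2.63 to 4.00 when 1 library was left out. Ambp, the precursor of alpha-1-microglobulin and the inhibitor bikunin, had no read in the healthy libraries and was at 2.18, 15.1 and 10.6 CPM in the HCC libraries. The mean of the HCC libraries (9.3 ± 6.6 CPM, SD, n = 3) was 3.85-fold the mean of the limits that 3 reads set in each healthy library. That ratio leaves out the spread of the HCC libraries. Rbp4, the plasma carrier of retinol, likewise had 0 in both healthy libraries and 2.18, 9.89 and 7.96 CPM in the HCC libraries. On the same basis its ratio was 2.76, with an HCC mean of 6.7 ± 4.0 CPM (SD, n = 3). For Ambp and Rbp4 HCC 2 was the highest library, not HCC 3. The value in HCC 1 corresponds to about 6 reads for each gene. A level of 2.18 CPM is under the limit that a 0 allows in healthy 1, so HCC 1 cannot be set above that library for these genes. For Ttr, the 1 read in healthy 1 has a 95% exact interval reaching 6.65 CPM, above the HCC 1 value of 5.44 CPM.

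The remaining carriers were low. Ahsg, the calcium-binding fetuin-A, was at 2.25 and 2.74 CPM in the healthy pair, against 0.544, 6.98 and 14.9 CPM in the HCC libraries, with HCC 1 the lowest of all. Gc, the vitamin D-binding protein, was at 0 and 1.10 CPM in the healthy pair, against 6.53, 0 and 6.90 CPM in the HCC libraries. Gc is the carrier in which HCC 1 was as high as HCC 3, while HCC 2, the deepest library, was listed at 0.

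**Figure D2:**
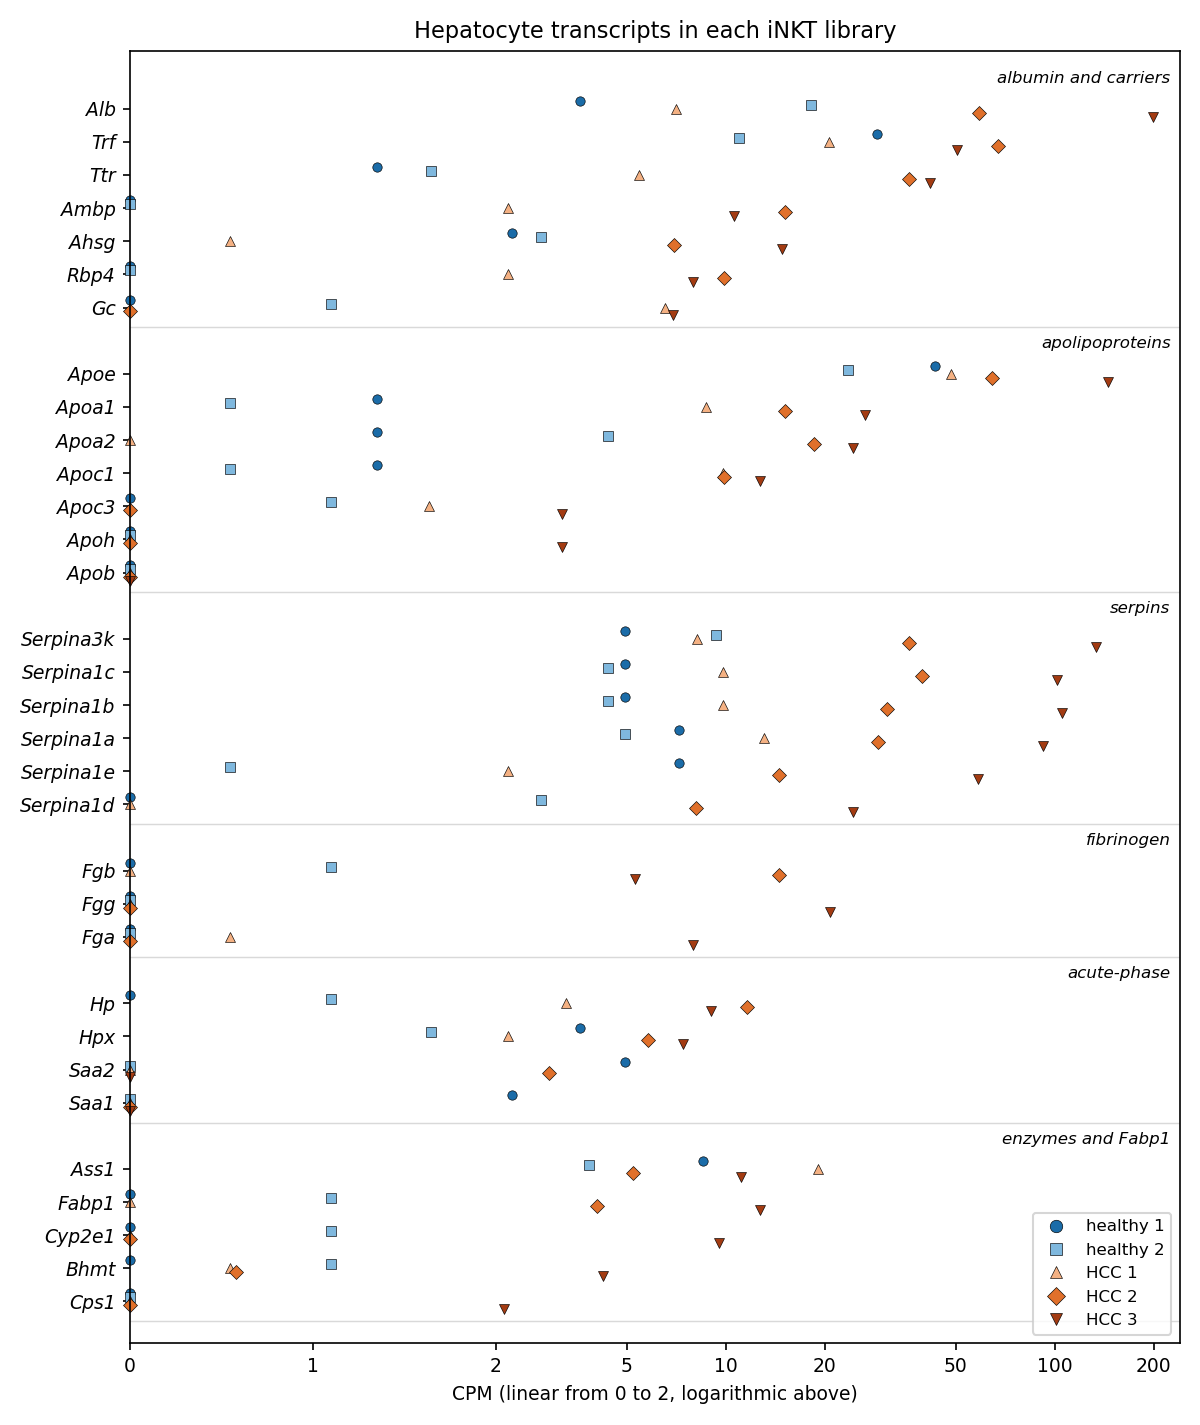
CPM of each of the 32 genes in each library (points, 1 per library), grouped by role, on an axis that is linear from 0 to 2 CPM and logarithmic above. HCC 3 is the highest library for 23 genes, and HCC 1 lies at or below a healthy library for 18. The 18 include Apob, Apoh, Fgg and Cps1, which are listed at 0 in HCC 1 and in both healthy libraries.

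Apolipoproteins, the protein parts of lipoprotein particles, summed to 47.2 and 30.2 CPM in the healthy pair, against 68.6, 108 and 215 CPM in the HCC libraries. Apoe (ENSMUSG00000002985, chromosome 7, 19696109 to 19699188), a ligand for lipoprotein uptake that macrophages also make, had the highest mean of the 32 genes. It was at 43.2 and 23.6 CPM in the healthy pair, against 48.4, 64.6 and 145 CPM in the HCC libraries. All HCC values lay above both healthy values, HCC 1 by a small margin, and the log2 fold change was 1.24 (SE 0.53), and 0.79 (without HCC 3) to 1.66 (without healthy 1) when 1 library was left out. Apoa1, the main protein of high-density lipoprotein, stood at 1.35 and 0.549 CPM in healthy libraries, which is about 1 read in each. In the HCC libraries it was at 8.71, 15.1 and 26.5 CPM (about 23, 59 and 36 reads). Its log2 fold change was 3.09 (SE 0.85), and between 2.71 and 3.47 when 1 library was left out.

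Apoc1, a small apolipoprotein encoded beside Apoe, showed another pattern. It was at 1.35 and 0.549 CPM in the healthy pair, against 9.80, 9.89 and 12.7 CPM in the HCC libraries, with little spread within the tumour group (10.8 ± 1.67 CPM, SD, n = 3). The fold between HCC 3 and HCC 1 was 1.30 for Apoc1 and 28.1 for Alb. Apoa2, which high-density lipoprotein carries beside Apoa1, was at 1.35 and 4.39 CPM in the healthy pair, against 0, 18.6 and 24.4 CPM in the HCC libraries, so that HCC 1 was below both healthy libraries. Apoc3, an inhibitor of triglyceride clearance, did not exceed 3.18 CPM. Apoh (beta-2-glycoprotein I) was seen only in HCC 3, at 3.18 CPM. Apob, the large structural protein of very-low-density lipoprotein, was listed at 0 in all 5 libraries. Its 3′ end shares no 31-base word with another gene.

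Serpins, inhibitors of proteases, summed to 29.2 and 26.3 CPM in the healthy pair, against 43.0, 158 and 516 CPM in the HCC libraries. Serpina1a to Serpina1e are the mouse copies of alpha-1 antitrypsin, the inhibitor of neutrophil elastase, and lie in tandem on chromosome 12. Of the words of 31 bases read at the 3′ ends of their transcripts, 87.6% in Serpina1a, 41.7% in Serpina1b, 45.2% in Serpina1c, 61.9% in Serpina1d and 38.9% in Serpina1e also occur in other genes, mainly the other copies. The 5 rows are therefore not separate measurements, since the counting could split or repeat their reads. With Serpina1a as the only row kept of the 5, serpins summed to 226 CPM in HCC 3, below the 332 CPM of albumin and the carriers. Serpina1a was at 7.19 and 4.94 CPM in the healthy pair, against 13.1, 29.1 and 92.4 CPM in the HCC libraries. Serpina1b was at 4.95 and 4.39 CPM, against 9.80, 30.8 and 105 CPM in the same order. Serpina1c was at 4.95 and 4.39 CPM, against 9.80, 39.6 and 102 CPM. By listed value these 3 rows separated the groups and differed little from each other. Their fitted log2 fold changes were 2.29 (SE 0.75) for Serpina1a, 2.55 (SE 0.83) for Serpina1b and 2.65 (SE 0.82) for Serpina1c. Without HCC 3 these were 1.56, 1.71 and 1.89, and without HCC 1 they were 2.93, 3.36 and 3.51.

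Serpina1e and Serpina1d, the other copies, overlapped between the groups. Serpina1e was at 7.19 and 0.549 CPM in the healthy pair, against 2.18, 14.5 and 58.4 CPM in the HCC libraries, and its log2 fold change of 2.01 (SE 1.16) became 0.81 without healthy 2 and 3.21 without healthy 1. Serpina1d was at 0 and 2.74 CPM, against 0, 8.15 and 24.4 CPM. Serpina3k (ENSMUSG00000058207, chromosome 12, 104338486 to 104346144), the inhibitor of tissue kallikrein, was at 4.95 and 9.33 CPM in the healthy pair, against 8.16, 36.1 and 134 CPM in the HCC libraries. For Serpina3k, as for Alb, HCC 1 lay between the healthy libraries. With Serpina1b to Serpina1e left out of the 32 genes, the ratio of the summed means was 4.68. Serpina3k shares 3.33% of its 3′ words, and its exons overlap Serpina3m.

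The fibrinogen chains, which are secreted as 1 assembled protein and form the fibrin clot, were highest in HCC 2 and HCC 3. Fgb was at 0 and 1.10 CPM in the healthy pair, against 0, 14.5 and 5.31 CPM in the HCC libraries. Fgg was seen only in HCC 3, at 20.7 CPM (about 28 reads), and Fga was at 0.544 CPM in HCC 1 and 7.96 CPM in HCC 3. HCC 2 thus held Fgb without a value for Fga or Fgg, where a 0 allows up to 1.21 CPM, while HCC 3 held all 3 chains. The chains summed to 1.10 CPM or less outside HCC 2 and HCC 3, where they reached 14.5 and 34.0 CPM.

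Acute-phase proteins, which hepatocytes release in inflammation, were low and mixed. Hp, the haemoglobin-binding haptoglobin, was at 0 and 1.10 CPM in the healthy pair, against 3.27, 11.6 and 9.02 CPM in the HCC libraries, with a log2 fold change of 2.49 (SE 1.11). The HCC 1 value is under the 3.58 CPM that a 0 allows in healthy 1, so HCC 1 cannot be set above that library for Hp. Hpx, the heme-binding hemopexin, was at 3.60 and 1.65 CPM, against 2.18, 5.82 and 7.43 CPM, and its groups overlapped. The serum amyloid A genes Saa1 and Saa2, which rise strongly in acute inflammation, were the 2 members with a lower mean in HCC libraries. Saa1 was seen only in healthy 1, at 2.25 CPM (about 2 reads). Saa2 reached 4.95 CPM in healthy 1, with 2.91 CPM in HCC 2 and 0 in the others. About 20% of their 3′ words are shared between them (20.4% in Saa1, 20.1% in Saa2).

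Metabolic enzymes and Fabp1 together reached 8.54 and 7.14 CPM in the healthy pair, against 19.6, 9.89 and 39.8 CPM in the HCC libraries. Ass1, a urea cycle enzyme that macrophages and other cells also use to recycle arginine, made up most of this sum outside HCC 3. It was at 8.54 and 3.84 CPM in the healthy pair, against 19.05, 5.24 and 11.1 CPM in the HCC libraries. It was the only member with its highest value in HCC 1, its groups overlapped, and 51.7% of its 3′ words are shared with the pseudogene Gm5424. Cps1, the mitochondrial entry enzyme of the urea cycle, was seen only in HCC 3, at 2.12 CPM (about 3 reads). Cyp2e1, a cytochrome P450 that activates DEN, was at 9.55 CPM in HCC 3, 1.10 CPM in healthy 2 and 0 elsewhere. Fabp1, which carries fatty acids in the hepatocyte cytosol, was at 0 and 1.10 CPM, against 0, 4.07 and 12.7 CPM. Bhmt, a methionine cycle enzyme, was at 4.25 CPM in HCC 3 and at 1.10 CPM or less in the other libraries.

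Across all genes, none passed the test, and no member did. In limma's moderated test of log2(CPM + 1), 0 of 8602 genes (0%) passed the adjusted threshold of 0.05, and the lowest adjusted value was 0.606. The 21 members tested had adjusted p values of 0.940 to 0.955. At an unadjusted p under 0.05, 351 genes were higher in HCC (4.08%) and 20 lower (0.233%), and among the 21 tested members 10 were higher and 0 lower. Without HCC 3, 2 of 12 tested members were higher at this level, against 169 of 8124 genes. The count was 6 of 13 without HCC 2, against 120 of 8031 genes, and 15 of 20 without HCC 1, against 221 of 8214 genes. In these member counts each Serpina1 row is counted as a member, although the rows are not separate measurements. The members were also chosen with earlier results of these data known, so the counts beside those of all genes only describe. All 21 had fitted levels higher in HCC, from 0.70 (Hpx) to 3.12 (Ttr) on the log2 scale, with a median of 2.19 against 0.19 over all genes tested, of which 61.9% were fitted higher. The other 11 members did not reach 5 CPM in 2 libraries, and since a gene could pass through the tumour libraries alone, the tested members are not a fair sample of the 32. With every gene that had a value in the fit, 29 of 31 members and 56.4% of 16664 genes were fitted higher, with medians of 1.48 and 0.14. Without healthy 2, 565 genes were called higher and 80 lower in limma, in a fit that assumes healthy 1 to vary like the HCC libraries, and still 0 members were. With median-of-ratios scaling, which moves the median over all genes to 0.05, the median of the tested members was 2.05.

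**Figure D3:**
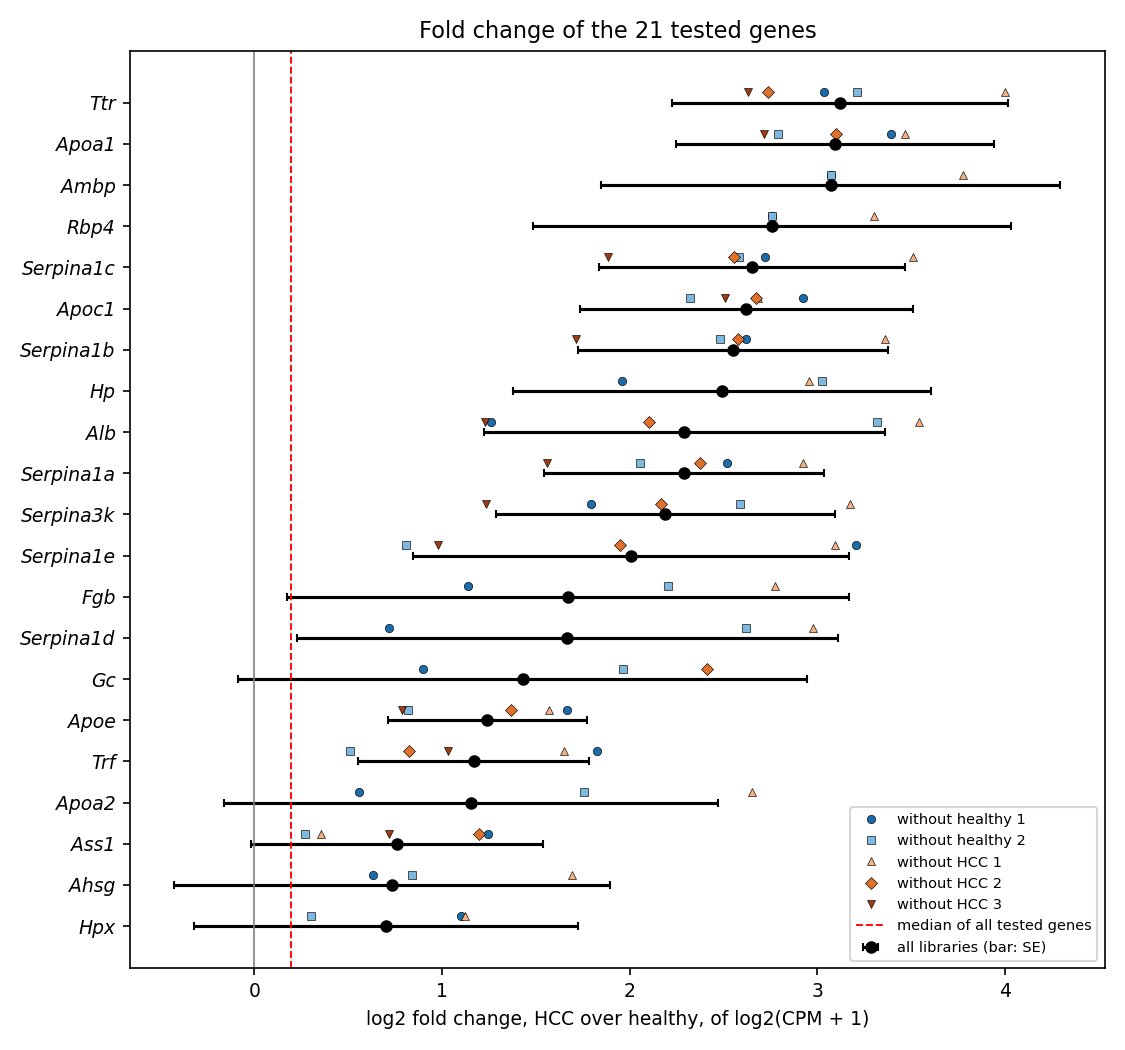
Log2 fold change (HCC over healthy, of log2(CPM + 1)) of the 21 genes tested, with all libraries (black, bar: SE) and with each library left out in turn (coloured). The dashed line marks the median of all 8602 genes, 0.19; Alb moves from 2.29 to 1.23 without HCC 3.

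By order alone, 10 of the 32 members had all HCC libraries above both healthy libraries and 0 had all below, against 8.43% and 5.74% of the 16664 genes with a value, or 12.9% and 5.37% of the 8602 genes tested. The 10 were Ttr, Rbp4, Ambp, Apoa1, Apoc1, Apoe, Serpina1a, Serpina1b, Serpina1c and Hp. Serpina1a, Serpina1b and Serpina1c are not separate measurements, so the 10 are not all separate genes. For Rbp4, Ambp and Hp, listed at 0 in healthy 1, the HCC 1 value is under the 3.58 CPM that a 0 allows there. Their order against healthy 1 is therefore not settled. Nor is it for Ttr, Apoe, Serpina1a, Serpina1b and Serpina1c, where the HCC 1 value is within the 95% exact interval of healthy 1. That interval reaches 6.65 CPM for 1 read (Ttr) and 12.2 CPM for 4 reads (Serpina1b and Serpina1c). It reaches 15.6 CPM for 6 reads (Serpina1a) and 59.5 CPM for 36 reads (Apoe). The HCC 1 values were 5.44, 9.80, 13.1 and 48.4 CPM in that order. With HCC 1 set aside, 20 members had HCC 2 and HCC 3 above both healthy libraries, against 14.3% of genes. The mean was higher in HCC for 29 members, against 56.2% of genes. HCC 3 was the highest library for 23 members, against 17% of genes, HCC 2 for 5, healthy 1 for 2 and HCC 1 for 1. The counts of 20, 29 and 23 members each hold all 5 Serpina1 rows, so they too exceed the number of separate measurements. Members were chosen with earlier results of these data known, so their counts beside those of all genes are a description and not a test.

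The mix of hepatocyte transcripts differed between libraries, for some roles and genes by more than the counting intervals below. Those intervals treat each read as independent and include all 5 Serpina1 rows, so they are too narrow where reads are repeated. Serpins held 22.0% (95% exact interval 14.65 to 30.97) and 25.8% (20.5 to 31.7) of the summed reads of the 32 genes in healthy 1 and 2. In HCC 1, 2 and 3 they held 23.6% (19.8 to 27.7), 31.3% (29.3 to 33.4) and 44.8% (42.3 to 47.3). With Serpina1b to Serpina1e left out, serpins held 10.6% and 15.8% of the summed CPM in the healthy pair and 13.3%, 15.8% and 26.2% in the HCC libraries. Apolipoproteins held 35.8% (26.8 to 45.5) and 29.4% (23.8 to 35.5) in healthy libraries and 37.8% (33.4 to 42.3), 21.4% (19.6 to 23.3) and 18.6% (16.7 to 20.6) in HCC 1, 2 and 3. Alb held 2.75% (0.57 to 7.83) in healthy 1 and 3.82% (2.28 to 5.97) in HCC 1, but 17.3% (12.8 to 22.6) in healthy 2 and 17.3% (15.4 to 19.2) in HCC 3. For the Alb share, HCC 1 was thus close to healthy 1, and HCC 3 to healthy 2. Trf held 13.4% (11.9 to 14.9) in HCC 2 and 4.36% (3.40 to 5.5) in HCC 3, and Ttr 7.14% (6.04 to 8.36) and 3.66% (2.78 to 4.71). The shares add to a whole, so a larger serpin share lowers the others.

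Between HCC 2 and HCC 3 the members did not differ in the same direction. HCC 3 was above HCC 2 for 24 members and below it for 6, against 37% and 45.2% of the 16664 genes with a value. The 24 include the 5 Serpina1 rows, which are not separate measurements. The fold of HCC 3 over HCC 2 was 3.39 for Alb, 3.71 for Serpina3k and 2.57 to 4.01 for the 5 Serpina1 rows. It was 1.16 for Ttr and 1.75 for Apoa1. Trf (0.747), Rbp4 (0.805), Ambp (0.702), Hp (0.775) and Fgb (0.365) were lower in HCC 3.

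Other hepatocyte genes were read from further lists. The 29 complement, coagulation and inhibitor genes summed to 23.4 and 63.7 CPM in the healthy pair, against 20.7, 92.5 and 161 CPM in the HCC libraries. Of the 4 tested, 0 passed in either direction, and 3 had higher fitted levels. Proc, the anticoagulant protein C, was at 9.44 and 51.0 CPM in the healthy pair, against 9.80, 34.3 and 26.5 CPM in the HCC libraries, while F2 (prothrombin) reached 31.8 CPM in HCC 3 against at most 4.07 CPM elsewhere. The 12 other acute-phase and iron genes summed to 20.7 and 3.29 CPM, against 5.44, 13.4 and 65.8 CPM, with 0 of 1 tested gene passing. Serpina3m reached 32.4 CPM in HCC 3 and Orm1, an acid glycoprotein, was highest in healthy 1 at 15.7 CPM.

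The 32 other enzymes summed to 73.3 and 92.8 CPM in the healthy pair, against 75.1, 100.7 and 208 CPM in the HCC libraries, with 0 of 4 tested genes passing and a median log2 fold change of -0.28. Their leading genes, the glutamine synthetase Glul at 41.8 to 71.0 CPM and the aminotransferase Oat at 3.49 to 21.2 CPM, are also expressed outside the liver. Nags, Tat, Hgd, Sds, Cyp7a1 and Ugt2b5 were listed at 0 in every library. The 19 other lipid and carrier genes summed to 216 and 92.2 CPM in the healthy pair, against 75.1, 126 and 111 CPM in the HCC libraries, and 0 of 3 tested passed. There, Igf1, a growth factor that macrophages make too, was at 173 CPM in healthy 1 and at 4.39 to 23.3 CPM elsewhere, and Selenop, a selenium carrier, at 31.02 to 81.5 CPM. Of 13 hepatocyte transcription factors, 11 were listed at 0 throughout, with Hnf4a at 2.12 CPM in HCC 3 only and Cebpa at 1.35 CPM at most. The 11 fetal liver and tumour genes summed to 18.9 and 26.9 CPM, against 16.3, 48.3 and 23.9 CPM, with 0 of 3 tested passing. Golm1 led them at 2.18 to 15.7 CPM with Igf2 at 0.544 to 9.02 CPM, and Gpc3 and H19 were listed at 0.

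**Figure D4:**
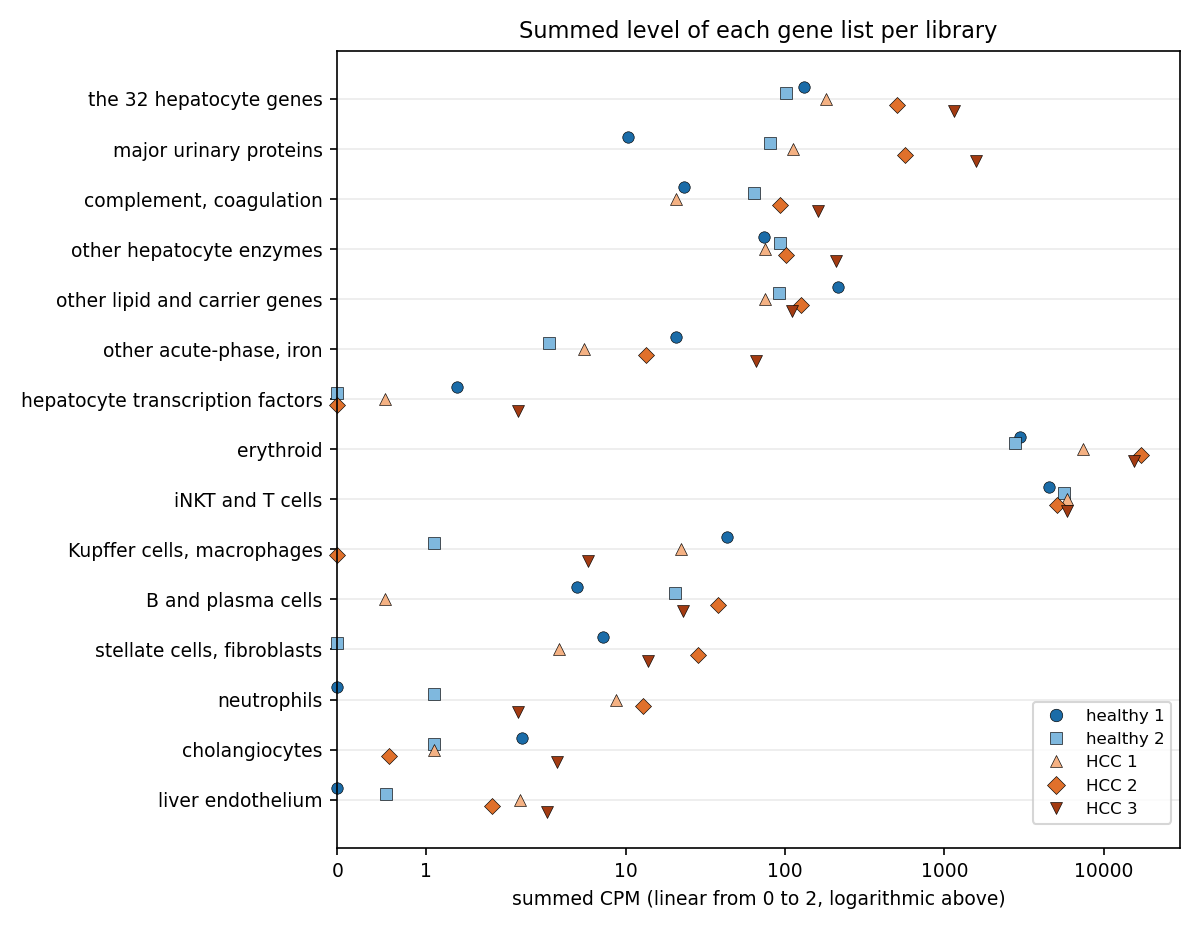
CPM summed over each gene list in each library (points, 1 per library), on an axis that is linear from 0 to 2 CPM and logarithmic above. The 32 hepatocyte genes and the major urinary proteins are highest in HCC 3, erythroid genes are high in HCC 2 and HCC 3, and T cell genes stay between 4545 and 5917 CPM.

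Marker genes of other cells were summed in the same way. The 22 major urinary protein genes, secreted by hepatocytes and near-identical to each other, summed to 10.3 and 80.1 CPM in the healthy pair, against 112, 567 and 1584 CPM in the HCC libraries, the same order of HCC libraries as the 32 genes. The erythroid list (6 of 7 with a value, Slc4a1 at 0) summed to 2975 and 2787 CPM, against 7391, 17083 and 15384 CPM, led by the globins Hba-a2 and Hba-a1. HCC 2 was there above HCC 3. Kupffer cell and macrophage genes (8 of 10 with a value, Vsig4 and Timd4 at 0) were at 43.2 and 1.10 CPM, against 22.3, 0 and 5.84 CPM, with Marco and C1qa leading and healthy 1 the highest. B and plasma cell genes (6 of 6, led by Cd79b and Mzb1) were at 4.95 and 20.3 CPM, against 0.544, 37.8 and 22.8 CPM. Stellate cell and fibroblast genes (5 of 7, Lrat and Des at 0, led by Col1a1 and Col1a2) were at 7.19 and 0 CPM, against 3.81, 28.5 and 13.8 CPM. Neutrophil genes (4 of 6, Cxcr2 and Csf3r at 0, led by S100a8 and S100a9) were at 0 and 1.10 CPM, against 8.71, 12.8 and 2.12 CPM. Liver endothelial genes (3 of 7, Stab2, Lyve1, Cdh5 and Fcgr2b at 0) were at 0 and 0.549 CPM, against 2.18, 1.75 and 3.18 CPM. All HCC values of these lists lay above the healthy values. A 0 in healthy 1 allows 3.58 CPM, and the neutrophil value of HCC 3 and every endothelial value are under that. Cholangiocyte genes (2 of 6, Krt7, Krt19, Spp1 and Tff2 at 0) were at 2.25 and 1.10 CPM, against 1.09, 0.582 and 3.72 CPM. T cell genes (11 of 11, led by Trbc2 and Il2rb) were at 4545 and 5600 CPM in the healthy pair, against 5873, 5073 and 5917 CPM in the HCC libraries. The part of these cells in the differences described here was not tested.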

How the data were processed

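Libraries of 2 healthy and 3 HCC samples were made with the QuantSeq kit (3′ ends of mRNA, read on Ion Torrent), per the labels' protocols. Per the submitters' processing notes, HISAT2, Bowtie2, bcl2fastq, limma, edgeR, DESeq and DESeq2 were named, with the build mm10. Roles, versions, counter, annotation and strand setting are not given in the sources used here. The deposited signal values are gene counts that had been multiplied by a factor per library and rounded, as the values themselves show. The factor is not stated in the sources used here, and the step of 1 read was estimated by maximum likelihood from the low values of each table.

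Symbols came by gene ID from GENCODE M21 (55104 of 55364 rows), promoters from RefSeq (GRCm38.p6). The values were divided by each table's total, and log2(CPM + 1) was tested with limma 3.58.1 in R 4.3.3 (empirical Bayes with intensity trend, HCC against healthy, Benjamini-Hochberg over all genes, threshold 0.05). Genes with at least 5 CPM in at least 2 libraries were kept. Fold changes on this scale understate changes of low genes. The count tests planned first were not run, since the values are not counts. Replicates are separate mice by the design text, and the p-values measure only the spread between these libraries. The limma step and the step estimate were tested on simulated data.

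Members and lists were chosen with earlier results of these data known. Planned naming covered each library's value for the 12 members with the highest mean and for members separating the groups at a mean of at least 5 CPM, and the 2 leading genes of each list. The values of other members, and list genes at 0 or named besides, were chosen after their values were seen. Names in the lists not in GENCODE were matched through RefSeq synonyms, and Ahsp was not matched.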

Additional observations from a re-analysis of the deposited data

How the results depend on the processing

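All 21 tested members kept a higher fitted level in HCC in every alternative in which they were tested (280 of 280 fold changes), and 0 of these passed the adjusted threshold. Between 48% and 64.3% of all genes were fitted higher in the same alternatives. A gene could pass the filter through the tumour libraries alone, so the higher level in HCC was partly set in advance for these members. With no filter on low values, 29 of 31 members were fitted higher. The median over the 21 tested members, 2.19 with all libraries, was 1.23 under the replicate block and 1.17 with a pseudocount of 5 CPM. It was 1.397 without HCC 3 and 2.97 without HCC 1, but only 12 and 20 members were tested there, so the sets differ. HCC 3 is the only library with replicate number 3, so under the block it adds nothing to the group difference. Where both were fitted, member fold changes under the block equal those without HCC 3, such as 1.23 for Alb. Under the replicate block, 6 of 21 members were higher in HCC at an unadjusted p under 0.05 in limma, against 412 of 8602 genes. The number of genes called by limma was 0 with all libraries, 2 with no filter on low values, 3 under the replicate block, and 0 to 645 when 1 library was left out, 645 being without healthy 2. No member was among them (0 when leaving out any library, and 0 with the replicate block). The ratio of the summed level was 2.94 (without HCC 3) to 7.09 (without HCC 1) when 1 library was left out, 3.65 with HCC 2 and 3 summed, 4.69 with median-of-ratios scaling, 5.32 relative to totals without globin and Mup rows, and 5.03 relative to protein-coding totals. Replicate numbers are not said to pair mice. Deviations from the group means correlated at -0.001 (healthy 1 and HCC 1) and 0.117 (healthy 2 and HCC 2) across genes. With 2 healthy libraries the deviations of 1 mirror those of the other, so these values cannot decide whether the numbers pair mice. DESeq2 size factors, the edgeR and DESeq2 tests, voom and TMM scaling were planned and not run, because the deposited values are not counts. Pseudocounts, median-of-ratios and deposited scaling, array weights, a fit with no trend, and the sums without some members were added after the data were seen. Depth limits the low members: in healthy 1 a single read is 1.19 CPM.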
